A study of Homo sapiens with 12 samples.

Results

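The genes described here are FGFBP1, the ligands FGF2 and FGF11, the receptors FGFR1, FGFR2, FGFR3, and FGFR4, and the Sprouty genes SPRY1, SPRY2, and SPRY4. They were chosen by gene symbol, as 10 of the 58735 genes counted, and the choice was made from results of these same libraries, the differences between arginine (Arg)-treated and untreated cells included. The Arg differences of these 10 genes are therefore given as values without a p-value, and only the number of genes past a threshold is set beside the share over all genes. The difference between the time points does not enter either Arg difference and was tested. It was treated as not used in the choice, although which results guided the choice is not stated, so its p-values may not be independent of that choice.

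Fibroblast growth factors (FGFs) are secreted proteins held in the extracellular matrix by heparan sulfate. FGFBP1 is a secreted carrier that binds FGF2 and releases it from this store. FGF2 has no classical secretion signal, and FGF11 belongs to the FGF homologous factors, which remain largely inside the cell. FGF receptors are tyrosine kinases that dimerize on ligand and heparan sulfate and signal through the RAS-ERK cascade. The Sprouty proteins are induced by this cascade and restrain it. In epithelia, FGFR2 is spliced to a form that binds FGFs made by the underlying mesenchyme, and FGFBP1 is made by squamous epithelia.

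The sequences before the start sites of FGFBP1, FGFR3, and SPRY4 are shown because, of the 10 genes, FGFBP1 had the highest level, FGFR3 had the highest level of the receptors, and SPRY4 had the largest fall between the time points. RefSeq promoters (GRCh38.p14) matched 9 of the 10 genes, with none for FGFR1. Each sequence holds the 250 bases before the RefSeq start site, at chr4:15938741-15938990 on the minus strand for FGFBP1, chr4:1793043-1793292 on the plus strand for FGFR3, and chr5:142324248-142324497 on the minus strand for SPRY4. Capitals mark the letters GGGCGG or CCGCCC, a GC box in either orientation.
FGFBP1: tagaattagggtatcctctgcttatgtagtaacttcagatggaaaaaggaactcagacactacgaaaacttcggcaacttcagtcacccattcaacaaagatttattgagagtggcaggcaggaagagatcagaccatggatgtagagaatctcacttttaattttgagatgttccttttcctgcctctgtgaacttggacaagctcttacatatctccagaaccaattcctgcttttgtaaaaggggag
FGFR3: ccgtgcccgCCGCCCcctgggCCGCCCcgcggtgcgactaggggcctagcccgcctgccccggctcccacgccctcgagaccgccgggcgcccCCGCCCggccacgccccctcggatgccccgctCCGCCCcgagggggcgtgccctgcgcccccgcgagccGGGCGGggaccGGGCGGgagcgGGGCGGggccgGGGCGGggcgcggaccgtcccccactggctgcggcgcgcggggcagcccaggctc
SPRY4: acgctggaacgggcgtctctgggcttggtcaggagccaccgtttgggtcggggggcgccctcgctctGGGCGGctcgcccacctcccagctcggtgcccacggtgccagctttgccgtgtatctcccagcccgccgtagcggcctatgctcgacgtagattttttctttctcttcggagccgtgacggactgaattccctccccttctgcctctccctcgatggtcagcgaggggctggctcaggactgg
The FGFR3 sequence was 86.8% G and C with 8 GC boxes, the SPRY4 sequence 65.6% with 1, and the FGFBP1 sequence 40.8% with 0. In windows of 250 bases before to 50 bases after the start site, 8 of the 9 matched genes held a GC box in at least 1 promoter, compared with 45% of 35116 promoters. The AP-1 letters TGAGTCA or TGACTCA were found for 1 gene, FGF11 (4.95% of all promoters), and the ETS letters CCGGAAGT or ACTTCCGG for 0 (4.14% of all promoters). Several genes have more than 1 promoter, so the share per gene and the share per promoter are not the same measure. The RefSeq start of SPRY4 lies inside the deposited gene, which ends at 142326455, so the counted gene includes a start that is not shown.

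The libraries were made from TIGK cells, human gingival keratinocytes immortalized with telomerase and grown in wells. All cells were kept at 48 mM glucose in a base medium that held no Arg. According to the paper, insulin, TGF-α, and pituitary extract were among its supplements, used as needed. The 4 groups were control for 24 h, 500 μM Arg for 24 h, control for 48 h, and 500 μM Arg for 48 h, with 3 libraries each (A, B, and C). TIGK is an immortalized line grown without other cell types, and nothing states that the replicates were separate cultures beyond separate wells, so a p-value measures the spread between these libraries only. The harvest and the time in culture cannot be told apart. In these bulk samples, fewer cells with a transcript and less of it per cell cannot be told apart either.

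The libraries held 16542243 to 19040964 counts. Control B stood apart from the other controls at both time points. For genes counted 20 times or more in a pair of libraries, the chi-square per degree of freedom was 20.9 and 23.9 for its pairs at 48 h, compared with 3.66 for the pair A and C, and 12.3 and 12.5 at 24 h, compared with 6.54. In both control B libraries FGFR2 and FGFR3 were the highest of the controls, and FGF2, FGFR1, SPRY2, and SPRY4 the lowest. Values without control B are therefore given beside the results. Arg A of 24 h stood apart to a similar degree, at 12.4 and 10.9 for its pairs, compared with 5.41 for Arg B and C. Values without Arg A are not given gene by gene. Among the single-library leave-outs at 24 h, the differences of FGFR2, FGFR3, SPRY2, and SPRY4 were largest in size without control B. The share of mitochondrial counts was 1.2% to 1.3% in the 24 h controls and 0.624% to 0.802% with Arg, without overlap, and its part in the 24 h differences was not tested. Keratinocyte markers summed to between 44800 and 56800 CPM (each count divided by the scaled library total in units of 1e6) over the 12 libraries, with all 12 markers tested, and KRT5 averaged 28500 CPM. Fibroblast markers summed to 30.3 to 103 CPM (4 of 8 tested), with DCN at 44.3 CPM and COL1A1 at 18.1 CPM on average, and COL1A2 at 2 counts in all, PDGFRA at 12, THY1 at 13, and COL3A1 at 14. Endothelial markers summed to at most 6.56 CPM (2 of 5 tested), melanocyte markers to at most 30.6 CPM (2 of 5 tested, MITF at 20.9 CPM on average, TYR at 0), and immune markers to at most 3.78 CPM (1 of 5 tested). At 24 h, 1 of 12 keratinocyte markers (ITGA6, log2 difference -0.40, edgeR adjusted p = 0.0084), 1 of 4 tested fibroblast markers (DCN, -0.70, edgeR adjusted p = 0.0294), and 1 of 2 tested melanocyte markers (MITF, -0.49, edgeR adjusted p = 0.028) were lower with Arg. Over all tested genes, 3.84% were lower. DESeq2 called 1 keratinocyte marker higher and 1 lower, 0 fibroblast markers, and 1 melanocyte marker lower. The part of these markers in the 24 h differences was not tested.

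FGFBP1 was by far the most abundant of the 10 genes. Per kilobase (kb) of exonic length, its level averaged 455 CPM per kb over the 12 libraries, which ranked 66 among 15148 genes. FGFR3 followed at 14 CPM per kb, and FGFBP1 exceeded it in 12 of 12 libraries by a ratio of means of 32.5. FGFR2 averaged 7.56 CPM per kb, below FGFR3 in 12 of 12 libraries. FGFR4 averaged 3.48, SPRY2 3.13, SPRY4 2.01, and FGF2 1.62 CPM per kb. The ranges of these 4 genes overlapped from each to the next, and SPRY4 exceeded FGF2 in only 6 of 12 libraries. FGFR1 averaged 0.419 CPM per kb and FGF11 0.32 CPM per kb, with FGFR1 the higher in 7 of 12 libraries, so these neighbors were not separated. SPRY1 was lowest at 0.0674 CPM per kb, from 58 counts in all 12 libraries.

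**Figure D1:**
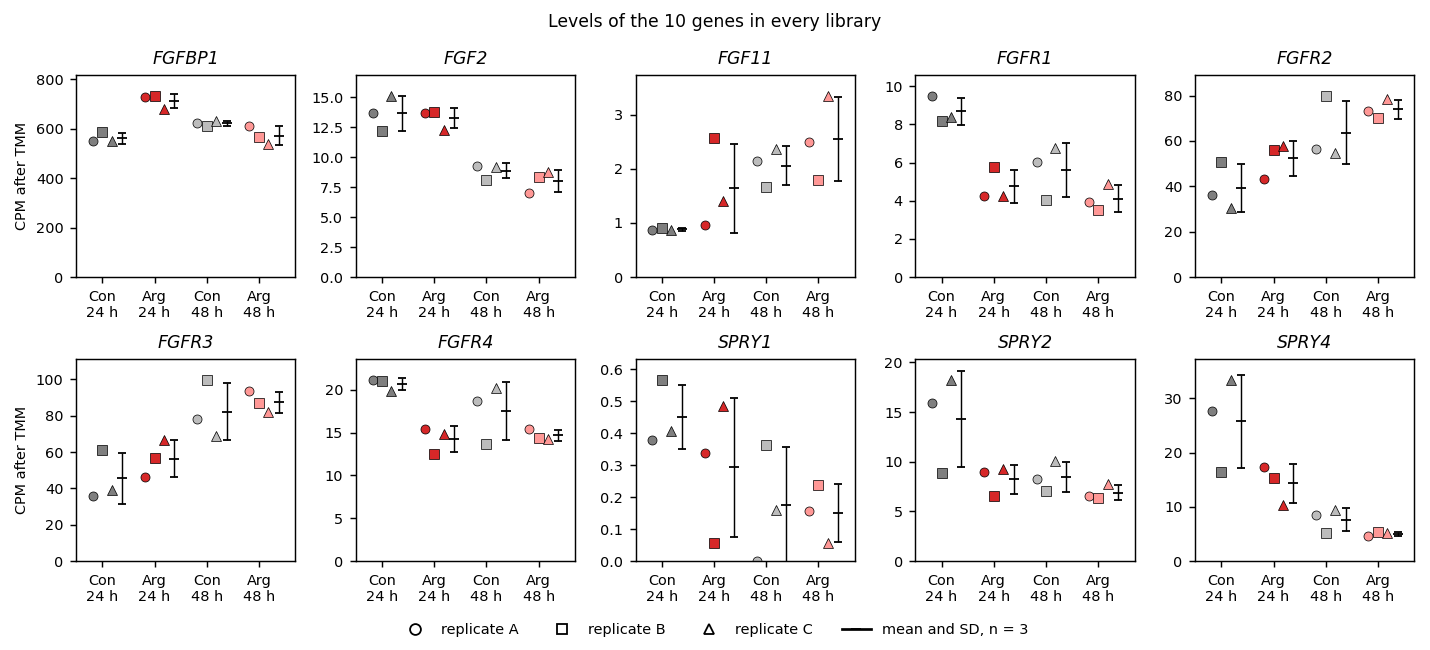
Levels of the 10 genes in CPM after TMM scaling (vertical axes, each from 0) in the 4 groups (horizontal axes), with a point per library and the mean with SD of 3 libraries at its right. FGFBP1 is between 681 and 732 CPM with Arg at 24 h and between 537 and 632 CPM in both groups at 48 h.

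Of the 10 genes, 9 passed the filter on low counts in every comparison, all but SPRY1. At 24 h, 1 of them was higher with Arg at an adjusted p under 0.05, where 2.79% of the 14279 tested genes were, and 4 were lower, where 3.84% of all tested genes were. The Arg libraries were all above the controls for 2 genes (FGFBP1 and FGF11; 12.9% of all tested genes) and all below for 2 (FGFR1 and FGFR4; 13.4%). At 48 h, edgeR called 0 of the 9 higher and 0 lower, where it called 0% and 0.117% of the 14562 tested genes. DESeq2 also called 0, and an unadjusted p under 0.05 was reached by 0 genes higher and 1 lower. No gene had all its 48 h Arg libraries above the controls (8.56% of all tested genes), and 1 had all below (FGFBP1; 8.51%). Since the genes were chosen with these contrasts known, nothing is read from these counts. The 24 h counts also moved with single libraries. They were 3 higher and 4 lower without control B, 0 and 0 without control A, 0 and 2 without control C, 1 and 3 without Arg A, 0 and 1 without Arg B, and 1 and 0 without Arg C. The calls over all tested genes moved with the same libraries. They were 398 higher and 549 lower with all libraries, 647 and 882 of 14645 without control B, and 126 and 233 without control A. The other leave-outs lay between these.

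FGFBP1 (ENSG00000137440, GRCh38, chromosome 4, 15935569 to 15938740, minus strand) overlapped no other counted gene. At 24 h its level was 549, 588, and 550 CPM in controls A, B, and C and 729, 732, and 681 CPM in the Arg libraries. Every Arg library was above every control, with means of 562 ± 22.5 and 714 ± 28.6 CPM (SD, n = 3) and a log2 difference of 0.34 ± 0.073 (SE). At 48 h, the controls had 625, 612, and 632 CPM and the Arg libraries 612, 569, and 537 CPM. Here the Arg libraries were at or below the controls, with a log2 difference of -0.12 ± 0.063 (SE). The groups touched, since the lowest control was at 612.5 CPM and the highest Arg library at 612.4 CPM, and they overlapped when scaled by DESeq2 size factors (612.6 and 613.3 CPM) or by library size only (626.2 and 629.9 CPM). Between the time points, the 3 controls were all higher at 48 h than at 24 h, and the 3 Arg libraries were all lower at 48 h than at 24 h. The Arg difference at 48 h minus that at 24 h was -0.47 ± 0.092 (SE) on the log2 scale. Without control B, the differences were 0.37 ± 0.075 at 24 h and -0.13 ± 0.058 at 48 h.

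FGF2 (ENSG00000138685, chromosome 4, 122826708 to 122898236, plus strand), the ligand that FGFBP1 carries, had 13.7, 12.2, and 15.1 CPM in the 24 h controls and 13.7, 13.8, and 12.3 CPM with Arg. At 48 h it had 9.29, 8.14, and 9.17 CPM in the controls and 7.04, 8.34, and 8.81 CPM with Arg. The Arg and control libraries overlapped at both time points, with log2 differences of -0.04 ± 0.14 and -0.14 ± 0.16 (SE), and the 24 h difference changed sign without control C (0.032) or Arg C (0.01). NUDT6 overlaps FGF2 on the opposite strand and held 205 counts in all, compared with 2371 for FGF2. FGF11 (ENSG00000161958, chromosome 17, 7438273 to 7444937, plus strand) was counted 15 to 16 times per 24 h control. It had 0.867, 0.904, and 0.869 CPM in these controls and 0.955, 2.56, and 1.4 CPM with Arg, where Arg A was only just above the controls and Arg B was the highest. At 48 h, the controls had 2.15, 1.66, and 2.36 CPM and the Arg libraries 2.5, 1.79, and 3.34 CPM, with overlap. Its log2 differences of 0.89 ± 0.43 and 0.30 ± 0.32 (SE) had the widest errors of the 9 genes. The 24 h difference was 0.41 without Arg B, and the 48 h difference was 0.067 without Arg C and 0.17 without control B. Each of the 20 other FGF ligand genes was low or at 0, with 8 at 0 counts and 18 under 100 counts over all libraries, so FGF2 was the FGF transcript with the highest CPM in these cells.

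Of the receptors, FGFR1 and FGFR4 were lower with Arg at 24 h, while FGFR2 and FGFR3 had higher means. FGFR1 (ENSG00000077782, chromosome 8, 38400215 to 38468834, minus strand), the receptor most common in mesenchymal cells, had 9.48, 8.19, and 8.4 CPM in the 24 h controls and 4.27, 5.77, and 4.25 CPM with Arg. The groups did not overlap, and the log2 difference was -0.87 ± 0.19 (SE). At 48 h it had 6.03, 4.05, and 6.76 CPM in the controls and 3.96, 3.51, and 4.89 CPM with Arg, a difference of -0.45 ± 0.24 (SE), with control B inside the range of the Arg libraries. Without control B, the 48 h difference was -0.63 ± 0.22. FGFR1 is uncertain because LETM2 overlaps it on the opposite strand and held 1051 counts, compared with 1258 for FGFR1, and whether strand was used in counting is not stated. LETM2 itself averaged 5.51 ± 0.636 and 5.32 ± 0.64 CPM (SD, n = 3) in the 24 h control and Arg groups.

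FGFR4 (ENSG00000160867, chromosome 5, 177086886 to 177098144, plus strand) had 21.1, 21.0, and 19.9 CPM in the 24 h controls and 15.4, 12.5, and 14.8 CPM with Arg. All Arg libraries were below all controls, with a log2 difference of -0.54 ± 0.13 (SE). At 48 h, it had 18.7, 13.7, and 20.2 CPM in the controls and 15.4, 14.4, and 14.2 CPM with Arg. Control B was below the 3 Arg libraries, and the other controls were above them. The difference was -0.26 ± 0.15 with control B and -0.41 ± 0.12 (SE) without it.

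FGFR2 (ENSG00000066468, chromosome 10, 121478334 to 121598458, minus strand) had 36.1, 50.9, and 30.5 CPM in the 24 h controls and 43.4, 56.0, and 57.6 CPM with Arg. Control B lay above Arg A, so the groups overlapped, and the log2 difference was 0.42 ± 0.15 (SE), or 0.65 ± 0.13 without control B. At 48 h, the controls had 56.6, 79.7, and 54.8 CPM and the Arg libraries 73.4, 70.2, and 78.3 CPM. Control B was then the highest of the 6 libraries, and the difference was 0.21 ± 0.12 with it and 0.41 ± 0.073 without it. FGFR3 (ENSG00000068078, chromosome 4, 1793293 to 1808872, plus strand), which in stratified epithelia is known from the keratinocyte compartment, had 36.1, 61.4, and 39.0 CPM in the 24 h controls and 46.3, 56.5, and 66.5 CPM with Arg. Its 48 h values were 78.1, 99.5, and 68.9 CPM in the controls and 93.5, 87.0, and 81.9 CPM with Arg. Control B lay inside the Arg range at 24 h and above it at 48 h. The log2 differences were 0.31 ± 0.16 and 0.09 ± 0.12 (SE), or 0.58 ± 0.13 and 0.25 ± 0.076 without control B of that time point. The 48 h difference of FGFR3 changed sign without control C (-0.025).

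The receptor genes were also described as shares of their sum per kb. The sum was 16.8 to 24.3 CPM per kb in the 24 h controls, 18.8 to 24.7 with Arg at 24 h, 26.1 to 34.2 in the 48 h controls, and 30.5 to 32.5 with Arg at 48 h. FGFR3 took the largest share in all 12 libraries, 47.7% ± 4.47 (SD, n = 3) in the 24 h controls and 57.9% ± 2.21 with Arg at 48 h. The FGFR4 share was 17.9% to 25.3% in the 24 h controls and 11.7% to 17% with Arg. The FGFR1 share was 2.43% to 3.96% in these controls and 1.24% to 1.89% with Arg. The FGFR2 share was 23.9% to 27.6% in the controls and 30.5% to 33.5% with Arg. At 24 h none of these 3 shares overlapped between the groups, control B included, whereas at 48 h all 4 shares overlapped. The 4 shares are parts of the same sum, so they are not separate results, and the CPM of FGFR2 itself overlapped at 24 h. Among single genes at 24 h, 12.9% of all tested genes were higher without overlap and 13.4% lower. Since the genes were chosen with these contrasts known, nothing is read from the separation of the shares.

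**Figure D2:**
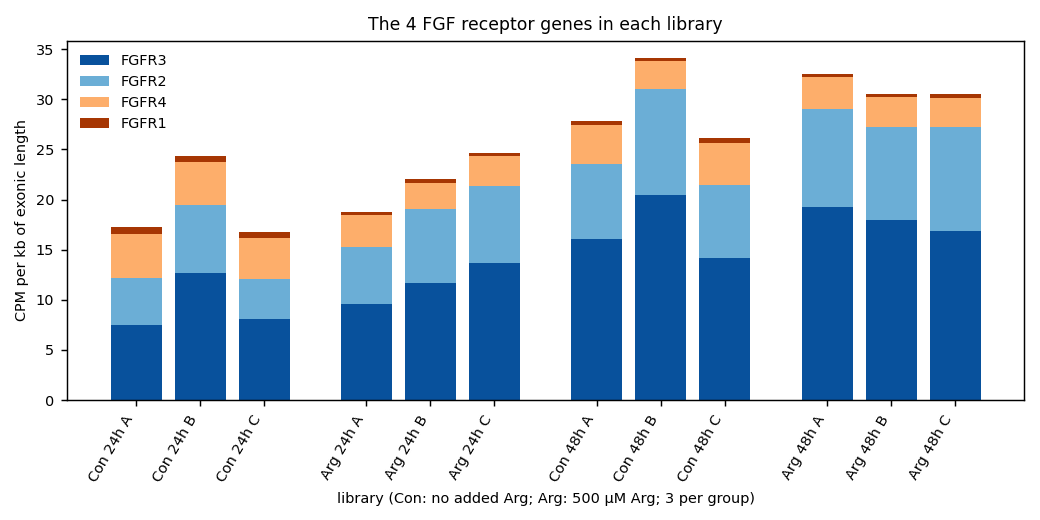
Summed level of the 4 FGF receptor genes in CPM per kb of exonic length (vertical axis) for each of the 12 libraries (horizontal axis), stacked by gene. FGFR3 is the largest part of every bar, and control B has the tallest bar of its group, 24.3 at 24 h and 34.2 at 48 h.

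Both measurable Sprouty genes were lower on average with Arg. SPRY2 (ENSG00000136158, chromosome 13, 80335976 to 80340951, minus strand) had 15.9, 8.87, and 18.2 CPM in the 24 h controls and 8.93, 6.58, and 9.24 CPM with Arg. Control B lay among the Arg libraries and the other controls well above them. The log2 difference was -0.80 ± 0.22 (SE), or -1.05 ± 0.17 without control B. At 48 h, it had 8.29, 7.11, and 10.1 CPM in the controls and 6.57, 6.37, and 7.77 CPM with Arg, a difference of -0.30 ± 0.18 with overlap. SPRY4 (ENSG00000187678, chromosome 5, 142310427 to 142326455, minus strand) had 27.6, 16.4, and 33.3 CPM in the 24 h controls and 17.4, 15.3, and 10.3 CPM with Arg. Control B was below Arg A, and the difference was -0.85 ± 0.21 (SE), or -1.10 ± 0.17 without control B. At 48 h, the controls had 8.45, 5.19, and 9.33 CPM and the Arg libraries 4.64, 5.42, and 5.12 CPM. Control B again lay inside the Arg range, with a difference of -0.60 ± 0.23, or -0.81 ± 0.18 without it. SPRY4-AS1 overlaps SPRY4 on the opposite strand and held 81 counts, compared with 2842 for SPRY4. SPRY1 (ENSG00000164056, chromosome 4, 123396795 to 123403760, plus strand) had 7, 10, and 7 counts in the 24 h controls and 6, 1, and 9 with Arg. At 48 h it had 0, 7, and 3 counts in the controls and 3, 4, and 1 with Arg, so no difference was detectable at this depth.

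**Figure D3:**
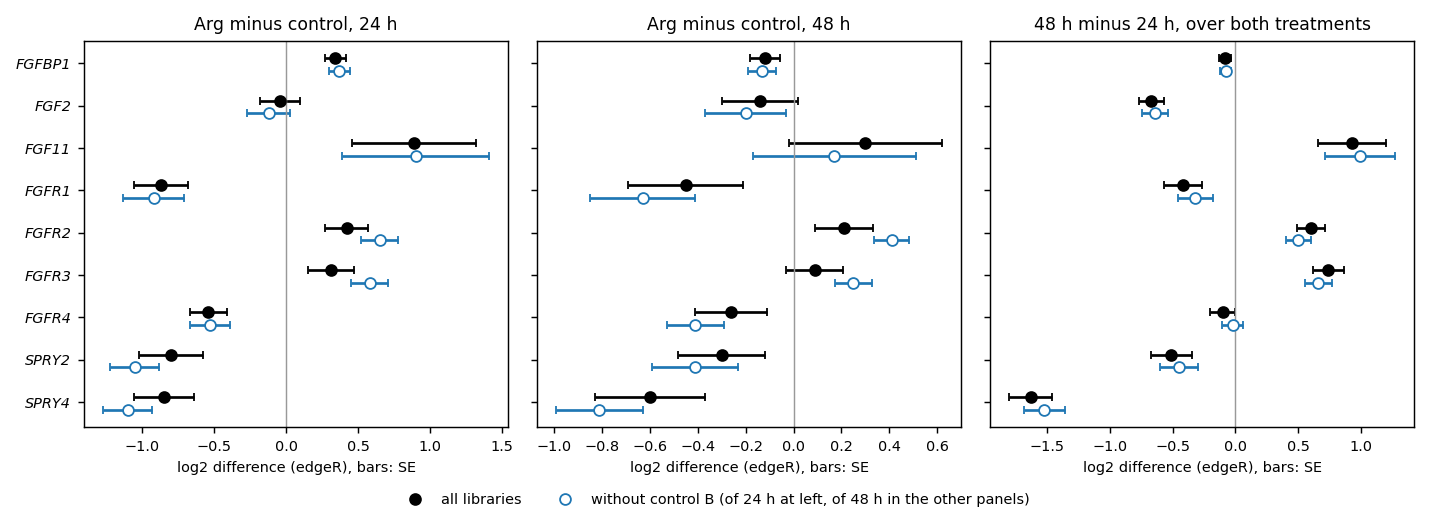
Log2 differences with SE (horizontal axes) of the 9 genes that passed the filter, for Arg minus control at 24 h, Arg minus control at 48 h, and 48 h minus 24 h over both treatments, with all libraries (filled) and without control B (open). FGFBP1 is at 0.34 at 24 h and -0.12 at 48 h, and SPRY4 is at -1.63 between the time points.

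Between 24 and 48 h, averaged over both treatments, the receptors FGFR2 and FGFR3 and the intracellular FGF11 rose, whereas FGF2, FGFR1, SPRY2, and SPRY4 fell. Of the 9 tested genes, 3 rose, where 19.3% of the 15148 tested genes did, and 4 fell, where 19.0% did. SPRY4 had the largest difference, from 10.3 to 33.3 CPM at 24 h to 4.64 to 9.33 CPM at 48 h. Every 48 h library was below every 24 h library for SPRY4, with a log2 difference of -1.63 ± 0.17 (SE) and an adjusted p of 9.93e-07 by edgeR's quasi-likelihood test. FGF2 fell by 0.67 ± 0.10 on the log2 scale (edgeR adjusted p = 3.29e-05), also without overlap. FGFR3 rose by 0.74 ± 0.12 (edgeR adjusted p = 4.72e-05), with every 48 h library above every 24 h library. FGFR2 rose by 0.60 ± 0.11 (edgeR adjusted p = 0.000261) and FGF11 by 0.93 ± 0.27 (edgeR adjusted p = 0.00917), both with overlap.

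The falls of SPRY2 and FGFR1 between the time points were less firm. SPRY2 fell by 0.51 ± 0.16 on the log2 scale (edgeR adjusted p = 0.014), with an edgeR adjusted p of 0.0536 without control C of 24 h. FGFR1 fell by 0.42 ± 0.15 (edgeR adjusted p = 0.0341). Its call was lost with scaling by library size only (edgeR adjusted p = 0.0688) and without any 1 of 6 libraries (edgeR adjusted p from 0.0504 to 0.104), namely controls A and C and Arg B of 24 h and control B, Arg A, and Arg B of 48 h. Without control B of 48 h, the difference was -0.32 and the edgeR adjusted p 0.079. FGFBP1 (log2 difference -0.085 ± 0.046, edgeR adjusted p = 0.155) and FGFR4 (-0.10 ± 0.10, edgeR adjusted p = 0.457) did not pass the test. Keratinocyte differentiation markers moved with time as well, with 5 of 9 tested markers higher at 48 h and 1 lower. Their sum was 840 to 1700 CPM in the 24 h libraries and 1930 to 4660 CPM in the 48 h libraries. Fibroblast markers summed to 30.3 to 54.4 CPM at 24 h and 72.8 to 103 CPM at 48 h, with 3 of 4 tested markers higher at 48 h. The part of these markers in the time differences was not tested.

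Over the 12 libraries, the genes whose log2 level was most like that of FGFBP1 were CHKA (Pearson r = 0.958), a choline kinase, ADAL (0.902), NDC80 (0.882), a kinetochore gene, CWF19L1 (0.874), and ERG28 (0.866). The correlations were computed for 9145 genes averaging at least 10 CPM, with a median of 0.0107, and the libraries share treatment and time. FGFBP1 itself had r = 0.24 with FGF2, -0.02 with FGFR3, and 0.05 with SPRY4. SPRY4 had r = 0.934 with FGF2, -0.962 with FGFR2, and -0.967 with FGFR3. These values describe the pattern over 4 groups and carry no p-value.

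Pathway genes outside the 10 were read from 8 lists of 109 genes, of which 81 were tested at 24 h. These lists were also chosen with earlier results known, so their p-values, though adjusted over all tested genes, are not independent evidence of a direction. At 24 h, 2 of the 81 were higher with Arg (2.79% over all tested genes) and 12 lower (3.84% over all tested genes). Of the 12, 10 were feedback inhibitors or ERK-responsive genes, from lists that held 12 and 14 of the 81 tested genes. The genes listed as feedback inhibitors fell in 4 of 12 cases and rose in 0 (edgeR, with 6 lower and 0 higher at an unadjusted p under 0.05, and 2 lower and 0 higher by DESeq2). The 4 calls became 2 without control A, control C, Arg B, or Arg C, and remained 4 in number without control B. The list's median log2 difference was -0.29, compared with 0.003 over all tested genes. PHLDA1, a pleckstrin homology-like protein, fell from 182 ± 37 to 87.1 ± 11.9 CPM (SD, n = 3), a log2 difference of -1.06 ± 0.13 (SE, edgeR adjusted p = 7.21e-05). Of the dual-specificity phosphatases, which dephosphorylate MAP kinases, DUSP4 fell by 1.11 ± 0.18 on the log2 scale (edgeR adjusted p = 0.00122). DUSP6, specific for ERK, fell by 0.64 ± 0.15 (edgeR adjusted p = 0.0159), and DUSP5 by 0.65 ± 0.16 (edgeR adjusted p = 0.0249).

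The ERK-responsive transcription factors and targets fell in 6 of 14 cases at 24 h and rose in 0 (edgeR, with 7 lower and 0 higher at an unadjusted p under 0.05, and 6 lower and 0 higher by DESeq2), with a median log2 difference of -0.53. FOS, an AP-1 subunit, fell from 162 ± 34.9 to 39 ± 3.96 CPM (SD, n = 3), or by 2.05 ± 0.13 on the log2 scale (edgeR adjusted p = 4.26e-08). FOSB, another AP-1 subunit, fell by 1.96 ± 0.25 (edgeR adjusted p = 0.000124). The ETS factors ETV5 and ETV4, common readouts of FGF signaling, fell by 0.73 ± 0.11 (edgeR adjusted p = 0.00078) and 0.72 ± 0.13 (edgeR adjusted p = 0.00235). Whether FGFs or another growth factor of the medium acted on the ERK-responsive genes or the feedback inhibitors was not tested. FOSL1 and IER3 were the other two genes that fell. Leaving out single libraries gave 5 to 9 calls in this list, the most without control B. With all libraries, EGR1, MYC, and CCND1 of the same list did not pass the test, at -0.12 ± 0.16, -0.16 ± 0.11, and 0.08 ± 0.082. Without control B, EGR1 (-0.36 ± 0.094, edgeR adjusted p = 0.0185) and MYC (-0.31 ± 0.082, edgeR adjusted p = 0.0197) passed, and CCND1 (0.063 ± 0.087, edgeR adjusted p = 0.704) did not.

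At 48 h, FOS was the 1 pathway gene of 81 that passed the edgeR test, lower with Arg by 0.94 ± 0.088 on the log2 scale (edgeR adjusted p = 0.000507). None was higher by edgeR or DESeq2, with 5 at an unadjusted p under 0.05, and 17 were lower at an unadjusted p under 0.05 and 3 by DESeq2. The count was 7 ERK-responsive genes and 3 feedback inhibitors without the filter on low counts. Without control B, 9 ERK-responsive genes were lower and 1 higher, and 4 feedback inhibitors were lower and 1 higher, while 1152 and 1213 of the 14854 tested genes were higher and lower. DUSP4 was then at -1.27 ± 0.11 (edgeR adjusted p = 5.3e-08) and ETV5 at -1.24 ± 0.11 (edgeR adjusted p = 4.09e-08). With all libraries, they were at -0.93 ± 0.29 (edgeR adjusted p = 0.217) and -0.83 ± 0.35 (edgeR adjusted p = 0.337). The values without control B were chosen after seeing the data. Single-library leave-outs gave 1 to 10 calls of ERK-responsive genes and 0 to 5 of feedback inhibitors, the most without control B.

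**Figure D4:**
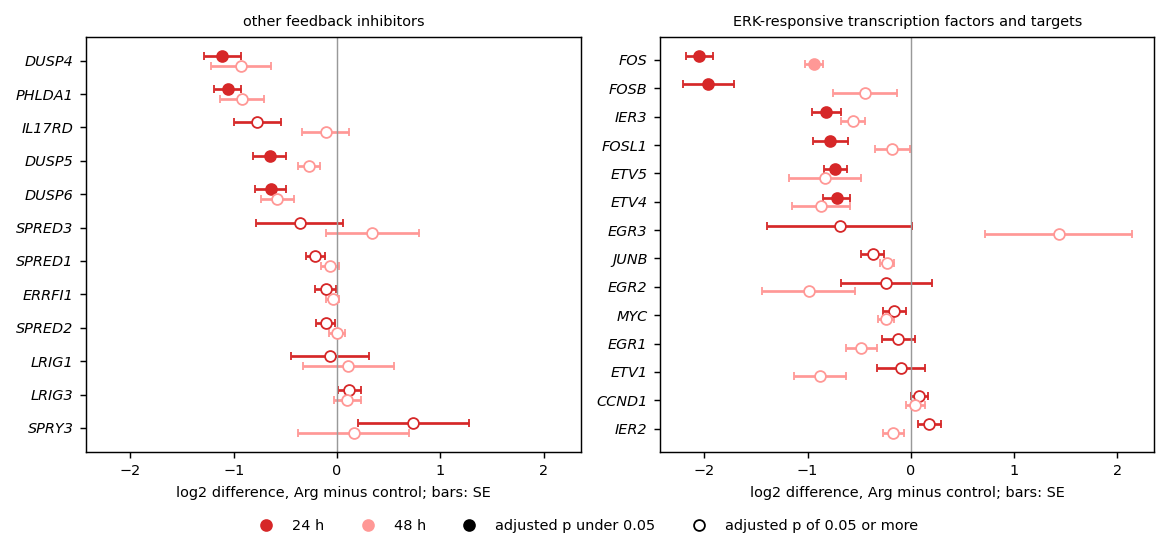
Log2 differences with SE between Arg and control libraries (horizontal axes) at 24 h (dark) and 48 h (light) for the 12 other feedback inhibitors and the 14 ERK-responsive genes, with filled points at an adjusted p under 0.05 (edgeR). FOS is at -2.05 at 24 h and at -0.94 at 48 h, the single filled point at 48 h.

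Each of the other lists had at most 1 edgeR call with Arg at 24 h. Over all tested genes, 2.79% were higher and 3.84% lower. Of the heparan sulfate proteoglycans, 1 of 9 tested was higher, GPC1, a glypican anchored to the cell surface, from 265 ± 25.2 to 406 ± 50.7 CPM (log2 difference 0.61 ± 0.094, edgeR adjusted p = 0.00078). Of the heparan sulfate synthesis genes, 1 of 12 was lower, the glucuronyl epimerase GLCE (-0.40 ± 0.11, edgeR adjusted p = 0.0438). Single-library leave-outs gave 0 to 2 calls in this list, with 0 without control A, and the other processing alternatives gave 0 to 1. Of the adaptors and RAS-ERK cascade genes, 1 of 23 was lower, MAP2K1, the kinase MEK1 (-0.48 ± 0.10, edgeR adjusted p = 0.00705). At an unadjusted p under 0.05, 4 of these 23 were lower and 0 higher. The cascade list also had 0 calls without control A. Of the splicing regulators of FGFR2, 1 of 4 was higher, ESRP2, an epithelial splicing factor (0.44 ± 0.087, edgeR adjusted p = 0.00531). DESeq2 called 2 of these 4 higher and 0 lower, and an unadjusted p under 0.05 gave the same numbers. None of 5 tested binding proteins and co-receptors passed the edgeR test, with 2 higher and 1 lower at an unadjusted p under 0.05 and 0 higher and 1 lower by DESeq2. FLRT3, a membrane partner of FGF receptors, was at -0.38 ± 0.12 (edgeR adjusted p = 0.0594) and the decoy receptor FGFRL1 at 0.01 ± 0.19 (edgeR adjusted p = 0.989). Neither of the 2 tested other ligands passed in edgeR or DESeq2, with 1 higher and 0 lower at an unadjusted p under 0.05. FGF1 was at 0.339 ± 0.159 CPM in the controls and 0.874 ± 0.179 CPM with Arg (edgeR adjusted p = 0.138), and FGF5 at 1.4 ± 0.291 and 1.51 ± 0.782 CPM (edgeR adjusted p = 0.909).

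Between the time points, 19 of the 81 pathway genes rose, where 19.3% of all tested genes did, and 26 fell, where 19.0% did. The feedback inhibitors fell in 6 of 12 cases and rose in 1, with DUSP6 at a log2 difference of -1.77 ± 0.12 (edgeR adjusted p = 1.23e-08), close in size to the -1.63 of SPRY4. PHLDA1 fell by 1.25 ± 0.14 (edgeR adjusted p = 1.27e-06) and DUSP4 by 1.33 ± 0.19 (edgeR adjusted p = 2.19e-05). The ERK-responsive genes fell in 7 of 14 cases and rose in 1, FOS, which was at 0.27 ± 0.087 (edgeR adjusted p = 0.0163), whereas ETV4 fell by 1.27 ± 0.17 (edgeR adjusted p = 8.45e-06). The heparan sulfate proteoglycans rose in 5 of 9 cases and fell in 0, with 1 lower at an unadjusted p under 0.05 and 0 lower by DESeq2. The 5 were SDC3, GPC1, GPC2, HSPG2, and AGRN, of which HSPG2, the basement membrane proteoglycan perlecan, rose by 0.85 ± 0.11 (edgeR adjusted p = 8.52e-06). FLRT3 rose by 0.59 ± 0.083 (edgeR adjusted p = 1.54e-05), and FGF5 fell by 1.48 ± 0.35 (edgeR adjusted p = 0.00244).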

How the data were processed

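RNA sequencing counts of TIGK cells in 4 groups of 3 libraries were used. The deposited values are raw integer counts per gene, which the authors made with fastp (read filtering), STAR (mapping, GRCh38/hg38), and featureCounts, and did not normalize. The annotation release, strand setting, and tool versions are not given in the sources used here. The table has 12 count columns, and each was used.

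Groups follow the labels. The Arg difference was fitted for each time point on its own 6 libraries with edgeR 4.0.16 (R 4.3.3), using TMM scaling, the low-count filter (minimum count of 10), the quasi-likelihood test, and Benjamini–Hochberg adjustment over all tested genes. The time difference and the interaction were fitted on all 12 libraries. Levels are CPM on a TMM scale of all 12 libraries, divided by deposited exonic length between genes. Library totals were 16542243 to 19040964 counts. The script was tested on simulated data.

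The members and lists were chosen with earlier results of these data known. Genes named are the 10 members, up to 4 genes per list with the smallest p among those with an adjusted p under 0.05 at either time point, otherwise the 2 with the highest level, genes overlapping a member, and the 5 genes most correlated with FGFBP1. Genes outside this rule were named after their values were seen.

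Alternatives were DESeq2 1.42.0, other scalings and filters, a single model, the replicate block, and leaving out each library. Values without control B of 48 h, and the alternatives of the interaction, were chosen after seeing the data.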

Additional observations from a re-analysis of the deposited data

Results flagged for a closer look

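For FGFBP1, every Arg library was above every control at 24 h. At 48 h the groups touched, with the highest Arg library at 612.4 CPM and the lowest control at 612.5 CPM. The Arg difference at 48 h minus that at 24 h was -0.47 on the log2 scale, with Arg differences of 0.34 at 24 h and -0.12 at 48 h. For FGFBP1 this difference was not tested, because the gene was chosen with these contrasts known. It lay between -0.52 and -0.42 when single libraries were left out. The 48 h groups overlapped when scaled by DESeq2 size factors or by library size only.

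The Arg difference of FOS at 48 h minus that at 24 h was 1.11 ± 0.17 (SE) on the log2 scale, which passed the interaction test (edgeR adjusted p = 0.0229). The call was lost without any 1 of 10 of the 12 libraries (edgeR adjusted p from 0.051 to 0.178, difference from 0.95 to 1.2) and was kept without control B of 24 h or control B of 48 h. FOS was lower with Arg in 3 of 3 libraries at both time points, from 162 to 39 CPM at 24 h and from 133 to 69.3 CPM at 48 h.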

How the results depend on the processing

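Over the alternatives, 154 of 162 tested time differences of the 9 genes kept their sign and side of the threshold, and 8 lost a call (7 of FGFR1 and 1 of SPRY2). Of 396 Arg differences and interactions, which carry no test, 393 kept their sign, 3 changed it (FGF2 at 24 h and FGFR3 at 48 h), and 1 moved beyond the replicate SD (FGF11, interaction, without Arg B of 24 h). The alternatives reuse the same counts and the genes were chosen with these contrasts known, so nothing is read from the kept signs. The number of these genes past the threshold at 24 h moved with single libraries. Counts over all genes depended more on the processing. At 24 h, 398 genes were higher and 549 lower, and leaving out single libraries gave 126 to 647 and 233 to 882, the lowest without control A and the highest without control B. At 48 h, 0 were higher and 17 lower, compared with 4 and 37 in a single model, 40 and 144 by DESeq2, 199 and 374 without a filter, and 0 to 1152 and 5 to 1213 without single libraries, the highest without control B. For the interaction, 2 were higher and 0 lower, compared with 10 and 13 by DESeq2, 51 and 37 without a filter, and 0 to 28 and 0 to 18 without single libraries. The cause was not tested.

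With the replicate block (letters A, B, and C), 43 genes were higher and 141 lower at 48 h, and 2 of the 10 genes were higher at 24 h in place of 1. Whether libraries of the same letter share more than a name is not stated. The deviations of same-lettered control and Arg libraries of the same time point correlated between -0.0615 and 0.0361. Correlations this low cannot show that nothing is shared. The controls B of 24 and 48 h correlated at 0.135, and the other pairs of groups lay below 0.1. With 3 libraries per group, low counts such as those of SPRY1 and FGF11 limit what can be seen.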
